A study of Mus musculus with 12 samples.

Results

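Oxidative phosphorylation, the step by which mitochondria turn the energy of NADH and succinate into ATP, is carried out by 5 enzyme complexes whose subunits are mostly encoded in the nucleus. The nuclear subunit genes were taken from the raw count table by symbol (Nduf followed by a, b, c, s or v; Sdha to Sdhd; Uqcr; Cox4 to Cox8; Atp5). Of 24985 genes in the table, 94 matched and 90 had a mean raw count of at least 10 over the 12 mice. These 90 genes are the ones described. By complex they were 35 genes of complex I, 4 of complex II, 8 of complex III, 16 of complex IV and 16 of complex V, together 79 subunit genes. The symbols also took in 10 assembly factors or other partners (Ndufaf1 to Ndufaf8, Cox7a2l and Atp5s) and 1 processed pseudogene, Ndufb4c. The 4 genes that fell short of the minimum were Cox8b, with a mean raw count of 6.25, Cox7b2, with 2.83, and Cox8c and Ndufs5, both listed at 0 in all 12 mice. All 90 genes also passed the filter on low counts that left 14742 genes for testing.

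The study asked how an acetate-rich diet and pathological tau act together on the hippocampus and on memory. RNA was taken from the dorsal hippocampus of 12 wild-type C57Bl6/J mice, with 3 mice in each of 4 groups. Mice were 6 months old when they received a unilateral injection of PBS or of 1 µg AD tau, aggregated tau extracted from the brains of people with Alzheimer's disease, and all were killed 6 months later, 24 hours after a remote memory recall test. Within each injection, mice ate either control chow or chow with 5% acetate by weight for those months. Tau came from extracted human aggregates rather than from a transgene, and only the injected right side was dissected. The 4 groups are called PBS control, PBS acetate, AD tau control and AD tau acetate.

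Each library held 12983233 to 20218340 counted reads, and the common biological coefficient of variation between mice of a group was 7.25%. The labels give all 12 mice as male, but Xist, which is transcribed from an inactive X, had 13583 to 25991 counts in each library and 8 Y-linked genes had 0 counts in total. This held in all 4 groups, and the 3 X-linked genes of the set (Ndufa1, Ndufb11 and Cox7b) were measured in mice whose label goes against the data. Markers of the CA1 and CA3 fields were present in every library, and their balance differed between groups, with values given beside the comparisons it moves with.

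Electrons enter the respiratory chain at complex I (NADH dehydrogenase) or complex II (succinate dehydrogenase), pass through complex III (cytochrome bc1) and cytochrome c to complex IV (cytochrome c oxidase), and the proton gradient they build drives complex V (ATP synthase). Neurons depend on this pathway for the ATP that restores ion gradients after firing. A few subunits of complexes I, III, IV and V are encoded in the mitochondrial genome. Of those 13 genes, 0 are among the genes counted, so they could not be analysed here. Several nuclear subunits exist as paired isoforms, of which one is used in most tissues and the other in muscle, testis or lung.

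Nuclear respiratory genes are textbook targets of the transcription factors NRF1, GABP (an ETS factor), ERR alpha and YY1. RefSeq promoters on GRCm38.p6, from 250 bases before to 50 after the transcription start, were at hand for 71 of the 90 genes (76 promoters). They were searched on both strands for 4 strings, which do not overlap each other in letters except that the NRF1 string can match both strands of 1 palindrome. The NRF1 string GCGCATGCG was in 13.2% of these promoters, against 3.24% of the 14713 promoters of tested genes. The YY1 string AAGATGGCG was in 10.5% against 2.59%, the ETS string CCGGAAG in 23.7% against 15.4%, and the ERR alpha string TCAAGGTCA in 2.63% against 0.279%. The last of these rests on 2 genes, Atp5g3 and Sdhd. Base composition differed little, with a median GC content of 58.0% against 60.7% and a median of 19.5 against 19.0 CpG sites. A match is only a string of letters and was not tested as a binding site.

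The 100 bases before the start are shown for 6 genes that recur in the results, with matched strings in capitals. Atp5g1, Atp5g2 and Atp5g3 encode the same mature subunit c of ATP synthase from separate loci, yet their promoters and levels differ. Cox6a1 is the widespread isoform of its subunit and among the most abundant genes of the set. Cox7a1 and Cox7a2 are the muscle and the widespread isoform of 1 subunit. The windows lie at chr11:96075632-96075731 (minus strand) for Atp5g1, chr15:102671048-102671147 (minus) for Atp5g2, chr2:73911327-73911426 (minus) for Atp5g3, chr5:115348959-115349058 (minus) for Cox6a1, chr7:30184071-30184170 (plus) for Cox7a1 and chr9:79759854-79759953 (minus) for Cox7a2.
Atp5g1: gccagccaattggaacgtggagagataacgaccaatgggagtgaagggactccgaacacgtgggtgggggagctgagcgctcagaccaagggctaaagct
Atp5g2: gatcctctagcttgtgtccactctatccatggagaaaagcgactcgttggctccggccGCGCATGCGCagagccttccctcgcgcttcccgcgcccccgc
Atp5g3: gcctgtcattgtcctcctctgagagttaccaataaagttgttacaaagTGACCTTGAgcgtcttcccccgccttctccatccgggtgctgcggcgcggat
Cox6a1: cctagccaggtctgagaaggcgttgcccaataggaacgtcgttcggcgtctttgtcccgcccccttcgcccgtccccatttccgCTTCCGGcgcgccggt
Cox7a1: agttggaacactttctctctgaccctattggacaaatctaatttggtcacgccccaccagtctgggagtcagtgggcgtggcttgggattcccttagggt
Cox7a2: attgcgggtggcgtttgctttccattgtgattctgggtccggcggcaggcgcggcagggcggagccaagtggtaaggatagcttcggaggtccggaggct
The capitals are the NRF1 string in Atp5g2, the ERR alpha string on the other strand in Atp5g3 and the ETS string on the other strand in Cox6a1. None of the 4 strings lies in the windows of Atp5g1, Cox7a1 or Cox7a2. The window of Cox7a1 holds 2 CpG sites and that of Cox7a2 holds 9.

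The oxidative phosphorylation genes were abundant, and their spread between mice was slightly smaller than that of all tested genes. Their median level was 60.1 counts-per-million (CPM) against 23.4 over all tested genes, and because their exons are short, with a median of 1631 against 4473.5 bases, the difference was wider per length. In RPKM, which is CPM divided by the exon length in kilobases, 39 of the 90 genes (43.3%) reached 50, against 5.57% of all tested genes. The spread between mice of a group, as a median coefficient of variation, was 6.91% against 8.54%. The set was not compared with genes of like level, so the smaller spread is not shown to be particular to it.

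Complex V had the most abundant transcripts by count. Atp5b and Atp5a1, the catalytic beta and alpha subunits, stood at 264 and 283 RPKM, followed by Atp5g3 at 89.9, Atp5k at 82.7 and Atp5c1, the rotating gamma subunit, at 80.3. The lowest was Atp5l at 0.652, and the median of the 16 genes was 41.4. Among the subunit c genes, Atp5g3 was 15.7 times Atp5g1 and 94.6 times Atp5g2 per length of all exons. In CPM, Atp5g3, Atp5g1 and Atp5g2 stood at 196, 28.1 and 1.59. Per length of the main transcript they stood at 271, 5.95 and 2.18 RPKM. On that scale Atp5l was at 7.72 and Atp5g2 was the lowest, so these folds and the lowest rank depend on the length used. Low counts of some of these genes go with sequence that is not their own. Only 14.9% of the 40-base words of the main Atp5l transcript and 12.4% of those of Atp5g2 occur in no other annotated gene, and reads that fit several places are by default not counted by the tool used.

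In complex IV, Cox8a, at 401 RPKM, was the highest of all 90 genes per length of all exons, with Cox6a1 at 273, Cox4i1 at 232, Cox6b1 at 199 and Ndufa4 at 122. Per length of the principal transcript, Atp5b led at 583 RPKM, above Cox4i1 at 470 and Cox8a at 451. Ndufa4 was first described in complex I and is now counted as a subunit of complex IV. The tissue-restricted isoforms were all low. Cox4i1, the common isoform, was 209 times Cox4i2, the lung isoform (121 to 354 times in single mice), and Cox6a1 was 91.6 times the muscle isoform Cox6a2. In the same way Cox6b1 was 133 times Cox6b2, Cox7a2 was 62.3 times Cox7a1, and Ndufa4 was 89.1 times its hypoxia-inducible relative Ndufa4l2. These folds rest on 6 to 45 reads per mouse for the lower isoform.

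Complex I spanned 1.86 RPKM for Ndufab1, the mitochondrial acyl carrier protein, to 129 for Ndufb9, with a median of 42.4. Among its core subunits in the nucleus, which form the path from NADH to ubiquinone, Ndufv2 stood at 58.0, Ndufv1 at 57.8, Ndufs8 at 42.4, Ndufs7 at 36.9, Ndufs3 at 21.8 and Ndufs1 at 21.0 RPKM. Ndufs5, an accessory subunit, was listed at 0 throughout although 66.3% of its 40-base words are unique, and no level is given for it.

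Complexes II and III were more even. Sdha, the flavoprotein of succinate dehydrogenase, stood at 107 RPKM, Sdhd at 57.7 and Sdhb at 41.3, with Sdhc, a membrane anchor, lowest at 25.8. In complex III the range ran from Uqcrb at 27.2 to Uqcr10 at 109, with the core proteins Uqcrc2 at 81.5 and Uqcrc1 at 48.6 and the Rieske iron-sulfur protein Uqcrfs1 at 74.9. The pseudogene Ndufb4c had no unique 40-base word and 20.8 reads per mouse, so its reads may come from another gene.

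**Figure D1:**
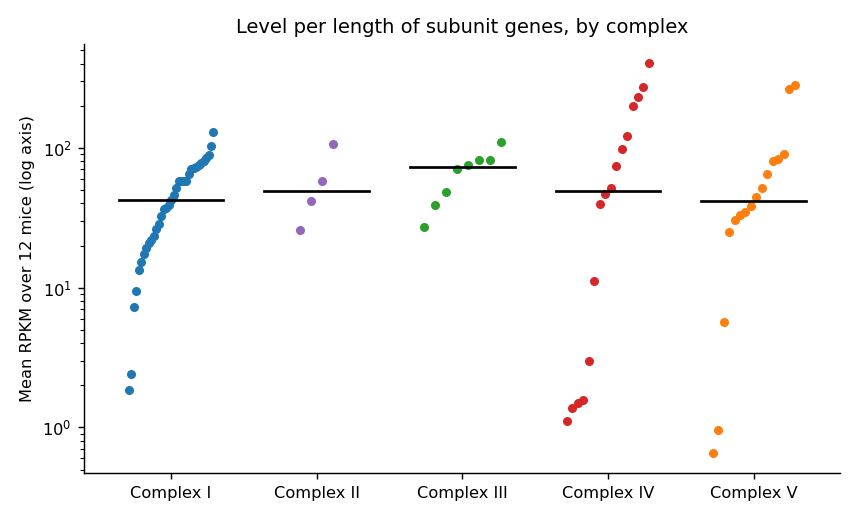
Mean level per length (RPKM over 12 mice, log axis) of each of the 79 subunit genes, ordered within complexes I to V; each point is a gene and the black line is the median of its complex. Medians lie between 41.4 and 72.5 RPKM, while single genes of complex IV run from 1.11 (Cox4i2) to 401 (Cox8a).

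For the 4 comparisons between groups and for the interaction of diet with injection, each of the 90 genes was tested with edgeR's quasi-likelihood test, adjusted over all 14742 genes, and called at an adjusted p below 0.1. No member was called in any of the 5 comparisons, in either direction, by edgeR, nor by DESeq2 on all 12 mice among the genes to which it gave an adjusted p. These are bulk samples, in which fewer cells of a type and less RNA per cell cannot be told apart.

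AD tau against PBS on the control diet asked whether seeding alone changed these genes. Of the 90 genes 0 were called, in a comparison where 0.0136% of all genes were called lower and 0% higher. Fold changes were small, with a median log2 fold change of -0.03 against -0.00 over all genes, and 67 of the 90 were below 0 (50.3% of all genes). Before adjustment 1 gene was at p below 0.05 (9.65% of all genes were). Groups did not overlap for 3 genes, all lower in AD tau (6.84% of all genes were lower and 6.61% higher without overlap), namely Ndufb6, Ndufb8 and Cox6b2. The last of these had only 15 to 37 reads per mouse over the series. The 95% intervals of 81 genes lay within 0.5 on the log2 scale, that is within 1.41-fold either way. The negative median rested on single mice: it was 0.02 without the third PBS control mouse and 0.01 without the third AD tau control mouse, and 0.01 once trends with GC content and length were removed from each library. Markers of hippocampal fields and of other cells moved with this comparison as well. The CA1 minus CA3 score, the mean log2 deviation of the CA1 markers less that of the CA3 markers, lay between -1.19 and -0.64 in PBS control mice and between -0.36 and 0.02 in AD tau control mice, and with it as a covariate the median was -0.01. These ranges do not overlap, so within these mice score and injection cannot be told apart. Summed ependymal markers ranged over 30.1 to 32.9 against 11.6 to 22.5 CPM, and summed meningeal and mural markers over 112 to 123 against 128 to 156 CPM. Sums of the inhibitory neuron markers (658 to 700.4 against 746 to 778 CPM), microglia markers (256 to 260.1 against 265 to 284 CPM), markers of oligodendrocyte precursors (240.0 to 277 against 231 to 234 CPM) and thalamus markers (139 to 324 against 91.0 to 135 CPM) did not overlap either. Single precursor markers were split, with 2 of 5 lower and 3 higher in AD tau mice and a median log2 difference of 0.04. Of all these lists 0 markers were called, and their part in the values of the set was not tested.

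By complex, the medians were -0.04 in complex I, -0.04 in complex II, -0.01 in complex III, -0.10 in complex IV and -0.04 in complex V. The complex IV median takes in low isoforms with 6 to 45 reads per mouse, and no median without them is given. The gene with the smallest p in complex IV was Cox7a1, the muscle isoform. It stood at 1.34, 0.618 and 1.02 CPM in the PBS control mice and at 0.721, 0.398 and 0.458 CPM in the AD tau control mice. The groups overlapped, and the log2 difference of -0.94 ± 0.41 (SE) had an adjusted p of 0.481. These levels are 6 to 23 reads per mouse over the series, so that counting noise is a large share of the spread. Ndufb6, an accessory subunit of complex I, differed by -0.15 ± 0.08 (adjusted p = 0.626). Sdhd, an anchor of complex II, differed by -0.10 ± 0.07 and Uqcr11 by 0.14 ± 0.09, both with an adjusted p of 0.684. The catalytic subunits Atp5a1 and Atp5b differed by -0.01 ± 0.05 each, and Sdha by -0.00 ± 0.05.

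AD tau against PBS on the acetate diet made the same comparison in the fed mice. Here too 0 of the 90 genes were called, against 0.0475% lower and 0.0882% higher over all genes. The median log2 fold change was -0.05 (all genes -0.00), with 70 genes below 0 (51.2% of all genes). It lay between -0.08 and -0.01 when each mouse was left out in turn, and was -0.01 without the third PBS acetate mouse. Before adjustment 3 genes, all lower, were at p below 0.05, against 10.3% of all genes in either direction. The 5 genes whose groups did not overlap were all lower in AD tau mice (background 8.71% lower and 7.51% higher): Uqcrb, Ndufb8, Atp5g2, Ndufaf2 and Ndufaf4. Of these, Atp5g2 had only 17 to 34 reads per mouse over the series. Summed ependymal markers ranged over 13.5 to 15.4 CPM in PBS acetate and 18.3 to 42.7 CPM in AD tau acetate mice. Microglia sums (255 to 270 against 277 to 321 CPM) and thalamus sums (108 to 115 against 116 to 125 CPM) did not overlap either. In each of these last lists 1 marker was lower. Summed choroid plexus markers overlapped, at 64.9 to 81.1 and 79.4 to 481 CPM. Of these lists 0 markers were called, and their part in the set was not tested.

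Uqcrb, a small subunit of complex III that binds ubiquinone, was the closest to the threshold. It lies at chr13:66900617-66905378 on the minus strand. It measured 25.3, 23.0 and 24.1 CPM in PBS acetate mice and 20.0, 20.1 and 20.6 CPM in AD tau acetate mice. Every AD tau acetate mouse was below every other mouse of the series, of which the PBS control mice had 25.7, 25.4 and 28.3 CPM and the AD tau control mice 24.6, 26.5 and 22.1 CPM. The log2 difference was -0.25 ± 0.08 (adjusted p = 0.284). Of its 40-base words 48.8% were unique. Ndufb8, an accessory subunit of complex I, measured 107, 103 and 107 CPM in PBS acetate mice against 93.5, 99.9 and 91.7 CPM in AD tau acetate mice, a log2 difference of -0.15 ± 0.06 (adjusted p = 0.343). Atp5g1 stood 0.15 ± 0.08 higher (adjusted p = 0.526), Cox6c at -0.08 ± 0.05 (0.651) and Sdhc at -0.05 ± 0.05 (0.796).

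**Figure D2:**
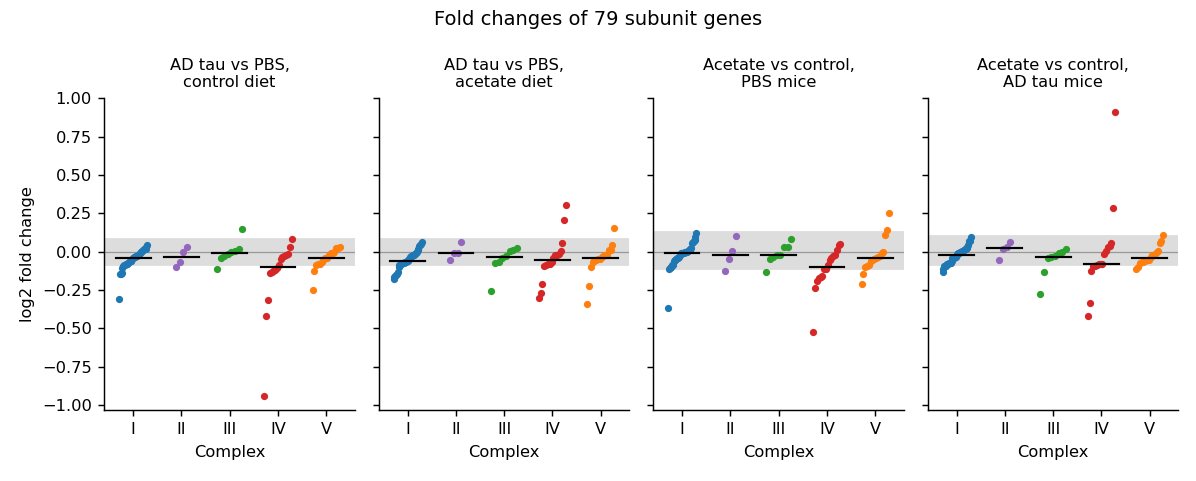
Log2 fold changes of the 79 subunit genes by complex in the 4 comparisons between groups; each point is a gene, black lines are medians, and the grey band holds the middle 50% of all 14742 genes. Most genes lie inside or near the band in each comparison, and the points far outside it include low-count isoforms of complex IV such as Cox7a1 (-0.94 and 0.91).

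Acetate against control diet in PBS mice was the comparison in which most genes of the whole table were called (4.85% lower and 3.99% higher). Of the 90 genes 0 were called in either direction. The median log2 fold change was -0.02 (all genes 0.00), with 59 of 90 below 0 (49.1% of all genes). Leaving out the third PBS control mouse turned it to 0.03, leaving out the second PBS acetate mouse to 0.00, and a covariate for the CA1 minus CA3 score to 0.02. At an unadjusted p below 0.05 stood 3 lower and 0 higher genes, where 20.8% of all genes were in either direction. Groups did not overlap for 3 lower genes (Atp5g1, Ndufv2 and Uqcrb; background 13.2%) and 1 higher gene (Ndufb7; background 13.1%). The 95% intervals of 81 genes lay within 0.5 on the log2 scale.

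Complex IV had the lowest median, -0.10, with 13 of 16 genes below 0. Its lowest gene was Cox6a2 at -0.52. That gene, Cox4i2, Cox6b2, Cox7a1 and Ndufa4l2 had only 6 to 45 reads per mouse, and no median without them is given. The medians of the other complexes were -0.01 for I, -0.02 for II, -0.02 for III and -0.04 for V. Ndufa4, on chromosome 6 (11900292 to 11907497, minus strand), measured 172, 178 and 205 CPM in PBS control mice and 160, 154 and 180 CPM in PBS acetate mice. The groups overlapped, and the log2 difference was -0.17 ± 0.07 (adjusted p = 0.179). It became a call without the third PBS acetate mouse, at -0.24 (adjusted p = 0.0655), and was -0.09 without the third PBS control mouse (0.574). Cox7b, a small X-linked subunit, had an unadjusted p below 0.05 as well and differed by -0.19 ± 0.08 (adjusted p = 0.194).

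Atp5g1, 1 of the 3 genes for subunit c, measured 28.9, 29.3 and 31.8 CPM in PBS control mice and 25.8, 24.9 and 27.2 CPM in PBS acetate mice. All 3 fed mice were below all 3 controls, and the log2 difference of -0.21 ± 0.08 had an adjusted p of 0.150. Of its sister genes, Atp5g3 stood at -0.06 ± 0.06 and Atp5g2 at 0.25 ± 0.26. Ndufb4 differed by -0.36 ± 0.17 (adjusted p = 0.243), Sdhd by -0.13 ± 0.06 (0.266) and Uqcrb by -0.14 ± 0.08 (0.372). The core genes were near 0, from -0.10 (Ndufv2) to 0.07 (Ndufv1) for the core subunits of complex I named above, -0.04 for Atp5a1 and -0.03 for Atp5b.

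Markers of hippocampal fields moved with this comparison. All 5 CA1 markers were higher in PBS acetate mice, 4 of them called, and all 6 CA3 markers were lower, 4 of them called. The summed CA1 markers ranged over 452 to 589 CPM in PBS control and 718 to 946 CPM in PBS acetate mice, and the summed CA3 markers over 528 to 632 and 311 to 457 CPM, with no marker at 0. With the CA1 minus CA3 score as a covariate, Ndufa4 differed by -0.00, Atp5g1 by -0.10 and Ndufb4 by -0.07 between diets. That score lay between -1.19 and -0.64 in the PBS control mice and between 0.09 and 1.01 in the PBS acetate mice, so within these 6 mice score and diet cannot be told apart. Choroid plexus markers, summed, were at 88.2 to 120 CPM in PBS control and 64.9 to 81.1 CPM in PBS acetate mice, with 1 of 6 called lower, and ependymal markers at 30.1 to 32.9 and 13.5 to 15.4 CPM, with 3 of 4 called lower. Summed thalamus markers, of which 0 of 5 were called, ranged over 139 to 324 and 108 to 115 CPM, and inhibitory neuron markers, with 0 of 6 called, over 658 to 700.4 and 734 to 813 CPM. Sums of the excitatory neuron markers overlapped (7900 to 8148 and 7544 to 8310 CPM), but 4 of 5 were lower and 2 called lower (Neurod6 and Slc17a7). Of the oligodendrocyte precursor markers (Gpr17 and Cspg4) and the astrocyte markers (Slc1a3 and Aqp4), 1 each was called lower and 1 higher. The part of these cells in the values of the set was not tested.

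In AD tau mice, acetate against control diet called 0 of the 90 genes, against 0.0204% lower and 0.0407% higher over all genes. The median was -0.03 (all genes 0.00) and 62 were below 0 (49.7% of all genes). It ranged from -0.08 without the third AD tau control mouse to -0.01 without the first. At an unadjusted p below 0.05 stood 1 lower and 1 higher gene, against 10.9% of all genes. Uqcrb was again lowest in AD tau acetate mice, at -0.27 ± 0.08 (adjusted p = 0.263), a comparison that shares those 3 mice with the one above. Cox7a1 was higher, at 1.09, 0.907 and 0.963 CPM against 0.721, 0.398 and 0.458 CPM, with no overlap, a log2 difference of 0.91 ± 0.41 and an adjusted p of 0.420. Without overlap between groups 3 genes were lower (background 7.77%), Uqcrb, Ndufa9 at -0.08 ± 0.05 and Ndufaf5 at -0.13 ± 0.09, and 1 was higher (background 6.66%), Cox7a1. Ndufv2 stood at -0.14 ± 0.07 (adjusted p = 0.511), Atp5f1 at -0.11 ± 0.06 (0.547) and Sdha at -0.05 ± 0.05 (0.760). Summed dentate granule cell markers ranged over 460 to 561 CPM on the control diet and 566 to 645 CPM on acetate, with 4 of 5 higher. Sums of the oligodendrocyte precursor markers did not overlap either (231 to 234 against 239 to 288 CPM), again with 4 of 5 higher. Of both lists 0 markers were called, and their part in the set was not tested.

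The interaction term asked whether the effect of diet differed between AD tau and PBS mice. It called 0 of the 90 genes, against 0.448% with a lower and 1.11% with a higher value over all genes, and its median was -0.01 (all genes -0.01), with 57 of 90 below 0 (51.2% of all genes). At an unadjusted p below 0.05 was 1 gene, against 13.0% of all genes. The smallest p belonged to Atp5g1, whose diet difference was -0.21 in PBS and 0.07 in AD tau mice, an interaction of 0.28 ± 0.12 (adjusted p = 0.306). AD tau mice had 28.6, 29.1 and 24.5 CPM on the control diet and 29.7, 29.6 and 27.2 CPM on acetate. Cox7a1 followed with 1.15 ± 0.55 (adjusted p = 0.389), and then Ndufb3 with -0.17 ± 0.09 (0.430), Sdhd with 0.16 ± 0.09 (0.487) and Uqcr11 with -0.21 ± 0.13 (0.532). The median of the set changed sign when single mice were left out, from -0.07 without the third PBS control mouse to 0.02 without the third PBS acetate mouse.

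**Figure D3:**
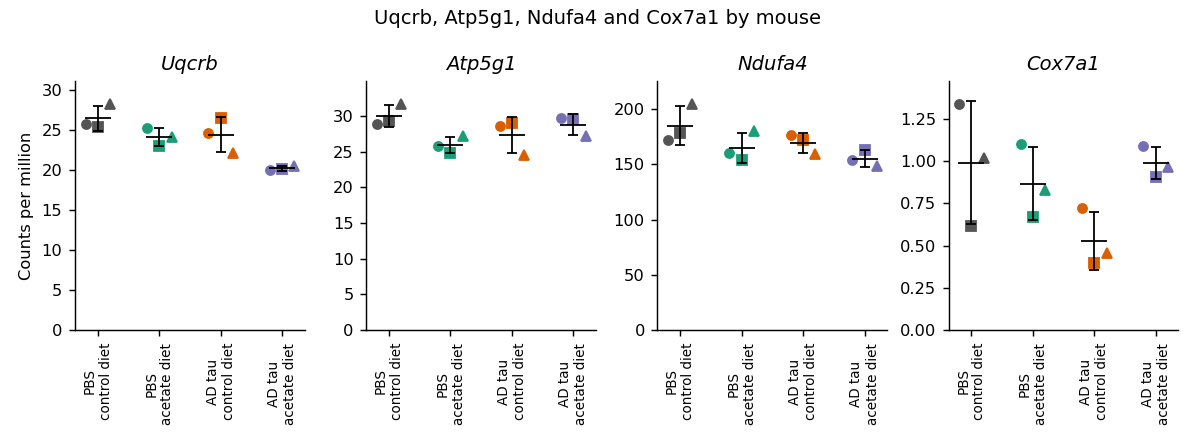
Level (CPM) in each mouse for Uqcrb, Atp5g1, Ndufa4 and Cox7a1, members described in the text; circles, squares and triangles are mice 1, 2 and 3 of each group, and black bars are the mean ± SD (n = 3). The AD tau acetate mice have the lowest Uqcrb (20.0 to 20.6), PBS acetate mice lie below PBS controls for Atp5g1, and Cox7a1 reaches at most 1.34.

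In some single mice most of these genes deviated in the same direction. In others they were split, with 48 of 90 below their 12-mouse mean in the first PBS control mouse and 46 in the first PBS acetate mouse. For each mouse and complex a score was taken as the mean over genes of log2 CPM after each gene's mean over the 12 mice was set to 0. Over the 90 genes it was -0.00, -0.01 and 0.13 in the PBS control mice, 0.01, -0.05 and 0.07 in the PBS acetate mice, 0.03, 0.04 and -0.10 in the AD tau control mice, and -0.07, 0.00 and -0.06 in the AD tau acetate mice. All 4 groups overlapped. The third PBS control mouse was the highest of the 12 and the third AD tau control mouse the lowest.

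In the third PBS control mouse 85 of the 90 genes were above their own group's mean, and in the third AD tau control mouse 9 of 90 were, against 49.5% and 50.8% of all tested genes. This held in each complex. The third PBS control mouse had 35 of 35 genes of complex I above the group mean, 4 of 4 of complex II, 8 of 8 of complex III, 14 of 16 of complex IV and 15 of 16 of complex V. In the third AD tau control mouse the counts were 2, 0, 0, 1 and 1. Together the 90 genes took 0.977% of all counts in the former and 0.852% in the latter, the ends of the range. The assembly factors of the set stood at 0.07 and -0.03 in these mice.

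The mean of the score was 0.04 ± 0.08 (SD, n = 3) in PBS control, 0.01 ± 0.06 in PBS acetate, -0.01 ± 0.08 in AD tau control and -0.04 ± 0.04 in AD tau acetate mice, so that all 4 means lay within the range of the 3 PBS acetate mice alone. Other values moved with the same mice. The third PBS control mouse had the lowest CA1 minus CA3 score of the 12 (-1.19), whereas the third AD tau control mouse (-0.36) did not stand at either end. Scores of the mitochondrial ribosome list in these mice were 0.08 and -0.11, and of the cytosolic ribosome list 0.07 and -0.13, against 0.15 and -0.11 for the 79 subunit genes. With trends in GC content and length taken out of each library, the 79 genes stood at 0.11 and -0.05, with 74 and 7 of 79 above the group mean. The third PBS control mouse was then still the highest, but the third AD tau control mouse was no longer the lowest, since the first AD tau acetate mouse and the third stood at -0.09 and -0.07.

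**Figure D4:**
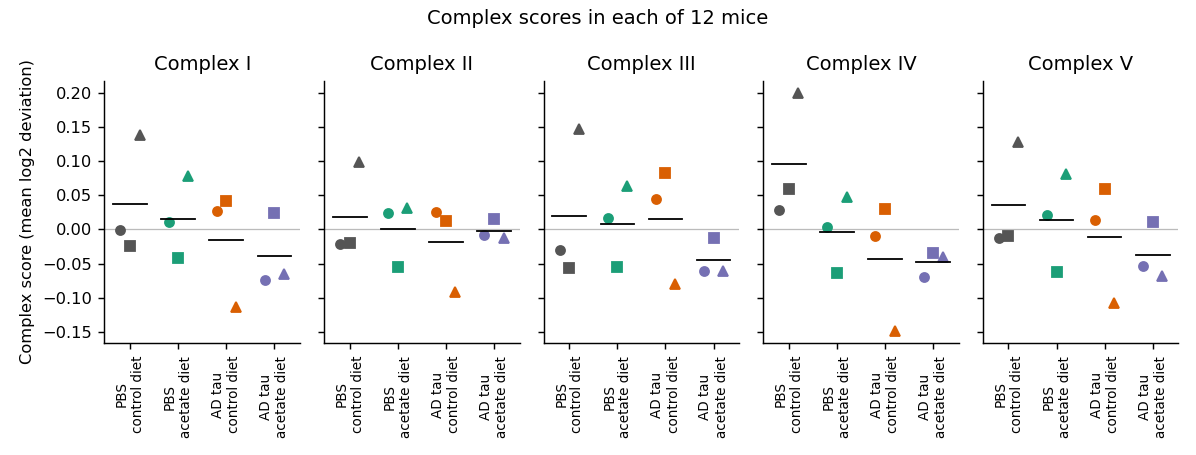
Score of each complex (mean log2 deviation of its genes from their 12-mouse means) in the 12 mice; circles, squares and triangles are mice 1, 2 and 3 of a group and black lines are group means. The same 2 mice, the third PBS control and the third AD tau control, are the highest and lowest in every complex. The groups overlap except in complex IV, where PBS control mice (0.03 to 0.20) lie above AD tau acetate mice (-0.07 to -0.03).

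The rest of the pathway was followed through lists of canonical genes. Cytochrome c1 (Cyc1), a catalytic subunit of complex III outside the symbol pattern, differed by 0.02 or less in size between groups. Somatic cytochrome c (Cycs) was at -0.27 ± 0.14 for acetate in PBS mice (adjusted p = 0.285) and -0.26 ± 0.14 for acetate in AD tau mice (0.516). Of 40 tested assembly factors outside the set, 2 fell and 1 rose with acetate in PBS mice, where 4.85% of all genes were called lower and 3.99% higher, so that the count is near the background, and 0 were called in the other 4 comparisons. Ttc19, a factor of complex III, fell from 103 ± 2.88 to 89.4 ± 6.54 CPM (SD, n = 3), a log2 difference of -0.21 ± 0.06 (adjusted p = 0.0619). Coa5 fell by 0.18 ± 0.06 on the log2 scale (adjusted p = 0.0805) and Coa7 rose by 0.30 ± 0.10 (0.0962); both act in complex IV assembly.

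The tricarboxylic acid cycle and pyruvate dehydrogenase genes, which supply NADH and succinate, had 1 call among 17, against the same 4.85% lower and 3.99% higher over all genes. It was Dlat, the acetyltransferase of pyruvate dehydrogenase. Dlat fell with acetate in PBS mice from 156, 145 and 162 CPM to 129, 123 and 139 CPM, with no overlap, by 0.25 ± 0.06 on the log2 scale (adjusted p = 0.0332). With acetate in AD tau mice, 5 of the 17 were lower and 1 higher without overlap (background 7.77% and 6.66%), and 0 were called. Among 14 regulators of mitochondrial biogenesis none was called in any comparison. The coactivator Ppargc1a stood at 0.19 ± 0.08 for acetate in PBS mice (adjusted p = 0.174) and -0.10 ± 0.08 for acetate in AD tau mice (0.685). Nrf1, which encodes the first of the promoter factors named above, measured 18.5, 19.8 and 19.4 CPM in PBS control mice against 23.3, 21.6 and 21.0 CPM in PBS acetate mice, a log2 difference of 0.19 ± 0.08 (0.190), and was at 0.18 ± 0.08 for acetate in AD tau mice (0.430). Tfam and Esrra differed by at most 0.09 in size in these 4 comparisons.

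As lists for comparison, 2 of 78 mitochondrial ribosome genes were lower with acetate in PBS mice (Mrpl51 and Mrps22), 1 of 79 cytosolic ribosome genes was higher (Rps15), and of 16 glycolysis genes 1 was lower and 1 higher (Aldoc and Eno1), beside the 4.85% lower and 3.99% higher over all genes. None of these lists had a call in the other comparisons. Their medians for acetate in PBS mice were -0.02, 0.05 and -0.04. For acetate in AD tau mice they were -0.00, 0.05 and -0.06, with 15 of 16 glycolysis genes below 0 (49.7% of all genes). Myelin markers moved with injection and diet in the same mice: all 10 were lower in AD tau than in PBS mice on the control diet without overlap, none called, with sums of 4926 to 5975 against 7420 to 9582 CPM, and 3 of the 10 were called lower with acetate in PBS mice. The direction reversed in the other 2 comparisons between groups. On the acetate diet all 10 were higher in AD tau than in PBS mice, with a median log2 difference of 0.46. With acetate in AD tau mice all 10 were higher too, with a median of 0.52, and none was called in either. For AD tau on the control diet the median of the oxidative phosphorylation genes was -0.03, and the part of either list in the other was not tested.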

How the data were processed

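The authors aligned reads to GRCm38 with STAR 2.5.2a and counted exonic reads per gene on the reverse strand with HTSeq 0.9.1, and the deposited values are raw counts, 1 column per mouse, not normalized. From these, genes were kept by filterByExpr (minimum count 10, minimum total 15), normalized by TMM and fitted with edgeR 4.0.16's robust quasi-likelihood model in R 4.3.3 over all 12 mice, with 1 mean per group and 8 residual degrees of freedom. Adjustment was by Benjamini-Hochberg across 14742 genes. TMM factors were 0.99 to 1.01, and standard errors were computed from F. As another tool DESeq2 1.42.0 was run. The functions were tested on simulated data. The labels call replicates separate mice, and no pair of libraries was close enough to be 1 library. At this depth the spread between mice limits abundant genes, and counting noise those with few reads.

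Members, lists and tests were chosen with earlier results of these data known. The genes named are the members called, the member with the smallest p of each complex in each comparison, the highest and lowest per length of each complex, a fixed list by role, and called genes of the pathway lists; others were named after their values were seen where a count is spelled out. RPKM uses the union of exons in GENCODE mouse release 21 on GRCm38. Alternatives were DESeq2, its size factors, no filter, only the compared mice, a replicate block, each mouse left out, GC and length trends, a CA1 minus CA3 covariate and another transcript length. The other experiments of the study were not analysed here. Results of 1 member are not reported here.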

Additional observations from a re-analysis of the deposited data

How the results depend on the processing

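No alternative turned a called result, since no member was called. The counts of members called lower or higher remained at 0 in every comparison under DESeq2 (with all 12 mice, or only those compared), DESeq2's size factors, no filter, edgeR on the compared mice, removal of GC and length trends and the CA1 minus CA3 covariate. With each mouse left out in turn, members called lower with acetate in PBS mice ranged from 0 to 1; the exception was Ndufa4 without the third PBS acetate mouse (-0.24, adjusted p = 0.0655), and the other counts stayed at 0. The replicate numbers do not pair the mice: correlations of deviations between mice of the same number ran from -0.11 to 0.14, and 3 of 12 mice correlated best with their own number. With the replicate block 0 members were called in any comparison, and the median for AD tau on the acetate diet was -0.05. When levels were set per length of the principal transcript, chosen after seeing the data, the medians rose to 70.9 RPKM in complex I, 69.4 in complex II, 105 in complex III, 115 in complex IV and 110.0 in complex V, so the order of the complexes depends on the length used. DESeq2 gave no adjusted p to 7 members for AD tau on the control diet and 15 for acetate in AD tau mice. Depth limits the isoforms of complex IV and Atp5g2, which had 6 to 45 reads per mouse.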
